A study of Mus musculus with 6 samples.

Results

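*Cd38* and 8 other genes of nicotinamide adenine dinucleotide (NAD) metabolism, *Nampt*, *Nmnat1*, *Nmnat3*, *Naprt*, *Nadsyn1*, *Parp1*, *Nnmt* and *Nnt*, were described in macrophages with and without ATP citrate lyase. They are 9 of the 24562 genes in the read count table, which has a row for each RefSeq transcript. The genes were listed by name with earlier results of these data known, and the row that stands for each gene was chosen by its total count over the libraries, the highest being kept. For *Nadsyn1* the row just outside this choice held 94.7% of the count of the row kept, and both rows of *Nnmt* were at 0. The other 7 genes had 1 row each among the rows that took a symbol. Another 117 rows stayed unnamed and did not enter this choice, and a further *Nnt* row may be among them.

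RNA of unstimulated ("Naive") bone marrow-derived macrophages (BMDMs), which were grown from bone marrow in L929-conditioned medium, was sequenced in 3 control and 3 AclyM-KO libraries, to ask how loss of *Acly* changes their expression programme. All mice were C57Bl/6J and carried *Acly* alleles with *loxP* sites around an exon (*Acly* fl/fl), and the labels call the controls WT although they are Cre-negative fl/fl mice. AclyM-KO mice also carried the *Lyz2*-Cre transgene, which is active across the myeloid lineage and not in macrophages alone, so that loss of *Acly* and presence of Cre cannot be told apart. The study describes in vitro samples as technical replicates of 3 pooled mice, from adult males and females with no sex given for each library, so every p-value measures the spread between these libraries and need not show that between mice.

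Cells make NAD from tryptophan by the de novo route, from nicotinic acid by the Preiss-Handler route, and by salvage of the nicotinamide that NAD-consuming enzymes release. Macrophages are known to rely on salvage and on CD38, a surface enzyme that cleaves NAD to nicotinamide and ADP-ribose and also makes cyclic ADP-ribose, a calcium messenger. PARPs and sirtuins consume NAD as well, to modify proteins with ADP-ribose or to remove acyl groups from them.

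Summed over all transcripts, the control libraries held 19327459 to 23582992 counts and the AclyM-KO libraries 19797218 to 44507233, AclyM-KO replicate 2 being the deepest. Levels below are CPM, counts scaled to the library's total over the tested genes with TMM factors. *Acly*, the targeted gene, was at 220.4, 233.0 and 235.8 CPM in control and at 93.3, 98.9 and 98.3 CPM in AclyM-KO libraries, so no library went against its label. The 6 macrophage markers were detected in every library, at a summed 8422 to 8626 CPM in control and 6832 to 8085 CPM in AclyM-KO libraries, with AclyM-KO replicate 2 the lowest. Granulocyte markers summed to 14.9 to 16.8 and 13.2 to 18.4 CPM, dendritic cell markers to 0.632 to 1.55 and 0.696 to 1.57 CPM, and T and NK cell markers to 0 to 0.271 and 0.227 to 0.435 CPM, with *Cd3e* and *Cd3g* at 0. Of 11470 genes that passed the filter on low counts, 1416 (12.3%) passed an adjusted p of 0.05 (edgeR), 768 (6.70%) of them higher and 648 (5.65%) lower in AclyM-KO. Scaling by total counts alone gave 919 higher of 1427 (64.4%), against 54.2% with TMM. The groups did not overlap in 32.8% of tested genes.

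*Cd38* lay well below control in every AclyM-KO library, whereas *Nampt*, *Nmnat1*, *Nmnat3*, *Parp1* and *Nnt* had log2 fold changes of -0.12 to 0.16 and did not pass the test. *Naprt*, which opens the Preiss-Handler route, was also below control in all AclyM-KO libraries but missed the threshold. Of the 8 tested genes, 1 passed it, *Cd38*, and none was higher, and the median log2 fold change of the 8 was -0.05 against 0.00026 over all tested genes. The 12.5% that passed stands beside the 12.3% of all tested genes, and the 2 genes of 8 without overlap stand beside 32.8%. Because *Cd38* was known to differ when the genes were listed, nothing was read from these shares.

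**Figure D1:**
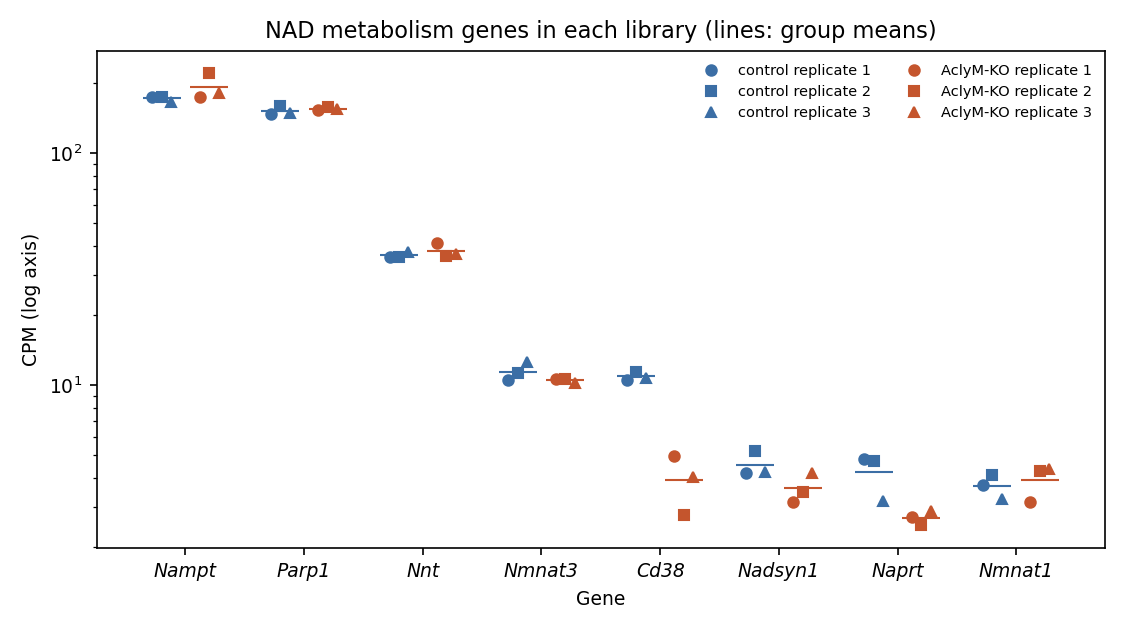
CPM on a log axis of the 8 tested NAD metabolism genes in each of the 6 libraries, blue for control and red for AclyM-KO, with the replicate number as the symbol and lines at the group means (n = 3). *Cd38* lies at 10.6 to 11.4 CPM in control and 2.76 to 4.96 CPM in AclyM-KO libraries, and *Naprt* is the only other gene whose groups do not overlap.

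*Cd38* (NM_007646, chromosome 5 from 43868809 to 43912374 in mm10) was counted 116, 153 and 119 times in control and 57, 73 and 46 times in AclyM-KO libraries. At the depth of each library this was 10.6, 11.4 and 10.7 CPM in control and 4.96, 2.76 and 4.01 CPM in AclyM-KO. The control libraries lay close together, the AclyM-KO libraries were more spread, and the groups did not overlap. The control mean was 10.9 ± 0.467 CPM and the AclyM-KO mean 3.91 ± 1.11 CPM (SD, n = 3). The log2 fold change, always AclyM-KO minus control, was -1.54 (SE 0.20, 95% interval -1.98 to -1.10), or 0.343 times the control level. AclyM-KO replicate 2 was both the deepest and the lowest in *Cd38*. Without it the log2 fold change was -1.28, and without AclyM-KO replicate 1, the highest of its group, it was -1.76. Thinning replicate 2 to the depth of the others gave -1.48.

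Since these are bulk libraries, fewer cells that express *Cd38* and less *Cd38* RNA per cell cannot be told apart. Some other markers also moved with the genotype. Of the 6 macrophage markers, 2 passed the threshold, both lower in AclyM-KO (against 5.65% of all tested genes), namely *Csf1r* (log2 fold change -0.48) and *Mertk* (-0.67). The other 4, *Adgre1* (0.07), *Cd68* (0.0088), *Itgam* (0.0011) and *Fcgr1* (-0.18), did not pass the threshold. *Cd68* and *Itgam* changed sign with 1 library left out, and *Fcgr1* passed in 2 of 16 alternatives. *Csf1r* missed it without any 1 of the controls, without AclyM-KO replicate 3 (edgeR adjusted p from 0.0769 to 0.137) and with summed transcripts, and its log2 fold change was -0.30 without AclyM-KO replicate 2. Of 9 proliferation markers, 5 passed it and were higher (against 6.70% of all tested genes), namely *Mki67*, *Top2a*, *Pcna*, *Mcm5* and *Mcm6*, and the 9 summed to 681.5 to 776.0 CPM in control and 884.2 to 1264 CPM in AclyM-KO libraries. *Pcna* and *Mcm6* missed the threshold without any 1 of the controls, and *Mki67* without control replicate 1 or 2. Without AclyM-KO replicate 2 the log2 fold change of *Pcna* went from 0.51 to 0.32 and that of *Mcm6* from 0.38 to 0.25. In the same fit that of *Mki67* went from 0.60 to 0.40. These genes were named after their values were seen, and their part in the *Cd38* difference was not tested. The 5 B cell markers, nearly all *Cd79b*, summed to 3.43 to 4.48 CPM in control and 2.34 to 3.83 CPM in AclyM-KO libraries, with *Pax5* at 0, and their part was not tested either. For *Cd79b* the log2 fold change was -0.43, with an edgeR adjusted p of 0.280, and it was -0.24 without AclyM-KO replicate 2 and -0.66 without AclyM-KO replicate 1.

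*Cd38* and *Nampt*, the NAD-cleaving and the NAD-restoring enzyme, also differ in the DNA upstream of their starts. Their 250 bases before the RefSeq start (GRCm38.p6, plus strand) are shown to set the promoter of the gene with the widest difference beside that of the rate-limiting salvage gene, with CG dinucleotides in capitals. The *Cd38* window is chr5:43868559-43868808 and the *Nampt* window chr12:32820085-32820334.
Cd38: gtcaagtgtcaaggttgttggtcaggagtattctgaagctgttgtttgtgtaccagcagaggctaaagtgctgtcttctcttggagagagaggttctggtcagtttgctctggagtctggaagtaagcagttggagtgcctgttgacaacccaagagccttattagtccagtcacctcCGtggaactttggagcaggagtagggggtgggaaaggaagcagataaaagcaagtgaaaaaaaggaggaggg
Nampt: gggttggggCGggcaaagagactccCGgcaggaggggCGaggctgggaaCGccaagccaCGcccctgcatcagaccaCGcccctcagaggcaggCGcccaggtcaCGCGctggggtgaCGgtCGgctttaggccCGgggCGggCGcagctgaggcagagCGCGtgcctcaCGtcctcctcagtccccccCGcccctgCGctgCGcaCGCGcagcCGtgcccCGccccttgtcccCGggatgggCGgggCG
The *Cd38* window held 1 CG, and 18.8% of the 32851 windows of that length held as few or fewer. The *Nampt* window held 27, and 92.4% of windows held as few or fewer, the median being 6. GC content was 48.8% for *Cd38* and 75.6% for *Nampt*. The hexamer AGGTCA, which many nuclear receptors recognise, was searched on both strands, where 14% of windows hold it, and it was in the *Nampt* but not in the *Cd38* window. RefSeq windows were matched for 6 of the 9 genes. *Nmnat1* (23 and 24 CG at its 2 starts), *Nadsyn1* (23), *Parp1* (16) and *Nmnat3* (9) all held more CG dinucleotides than *Cd38*, and none of these held AGGTCA. No methylation or binding was measured here.

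Among the salvage enzymes, *Nampt* (NM_021524, chromosome 12 from 32820335 to 32853369) encodes the rate-limiting step, which turns nicotinamide into nicotinamide mononucleotide. It was at 175.2, 174.0 and 166.9 CPM in control and 174.6, 220.7 and 181.4 CPM in AclyM-KO libraries. AclyM-KO replicate 2 stood above the others, replicate 1 lay within the control range, and the groups overlapped. The means were 172.0 ± 4.50 and 192.2 ± 24.9 CPM (SD, n = 3), a log2 fold change of 0.16 (SE 0.088, 95% interval -0.03 to 0.35, adjusted p = 0.260 by edgeR). Without AclyM-KO replicate 2 it was 0.05.

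The NMNAT enzymes turn mononucleotides into dinucleotides and so serve both the salvage and the Preiss-Handler route, *Nmnat1* in the nucleus and *Nmnat3* in mitochondria. *Nmnat1* (NM_133435, chromosome 4 from 149467569 to 149485210) was at 3.73, 4.11 and 3.25 CPM in control and 3.13, 4.27 and 4.36 CPM in AclyM-KO libraries. The lowest and the highest values were both AclyM-KO libraries, so the control range lay within that of AclyM-KO. Its log2 fold change was 0.10 (SE 0.205, adjusted p = 0.813 by edgeR), and with 36 to 113 counts a library the 95% interval, -0.35 to 0.54, was wide. *Nmnat3* (NM_144533, chromosome 9 from 98287433 to 98420533) was at 10.6, 11.3 and 12.5 CPM in control and 10.6, 10.7 and 10.2 CPM in AclyM-KO libraries. Control replicate 1 overlapped the AclyM-KO libraries while the other controls were above them. The log2 fold change was -0.12 (SE 0.126, 95% interval -0.40 to 0.15, adjusted p = 0.573 by edgeR).

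*Naprt* and *Nadsyn1*, genes of the Preiss-Handler route, had lower means in AclyM-KO, and neither passed the threshold. *Naprt* (NM_172607, chromosome 15 from 75890963 to 75894481), whose enzyme takes up nicotinic acid into the route, was counted 53, 63 and 35 times in control and 31, 66 and 33 times in AclyM-KO libraries. In CPM this was 4.82, 4.71 and 3.16 in control and 2.70, 2.49 and 2.88 in AclyM-KO. All AclyM-KO libraries lay below the controls, although control replicate 3 came close to them. The means were 4.23 ± 0.929 and 2.69 ± 0.193 CPM (SD, n = 3), and the log2 fold change was -0.67 (SE 0.222, 95% interval -1.16 to -0.19, adjusted p = 0.0700 by edgeR). Over 16 alternative fits the adjusted p was between 0.0557 and 0.243. Exons of *Naprt* overlap those of *Eef1d* on the same strand, which was at 58.8 CPM, so that reads in the shared bases cannot be assigned and the level is uncertain.

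*Nadsyn1* (NM_030221, chromosome 7 from 143795589 to 143822862) encodes NAD synthetase, the last step of the Preiss-Handler and de novo routes. It was at 4.18, 5.23 and 4.24 CPM in control and 3.13, 3.48 and 4.19 CPM in AclyM-KO libraries. The groups overlapped through AclyM-KO replicate 3, which lay just above the lowest control. The log2 fold change was -0.35 (SE 0.197, 95% interval -0.78 to 0.08, adjusted p = 0.281 by edgeR), and -0.23 without control replicate 2.

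*Parp1* (NM_007415, chromosome 1 from 180568891 to 180600999) encodes the main nuclear poly(ADP-ribose) polymerase, which spends NAD at DNA breaks. It was at 147.0, 159.8 and 149.0 CPM in control and 152.9, 157.7 and 155.6 CPM in AclyM-KO libraries. All AclyM-KO values fell inside the control range. Its log2 fold change was 0.03 (SE 0.065, adjusted p = 0.799 by edgeR) with the narrowest 95% interval of the 8 genes, -0.11 to 0.18. Of the 7 genes that did not pass, 6 had values that moved by over 1.5 times with 1 library left out and none changed sign. The ranges were 0.0097 to 0.21 for *Nmnat1*, -0.18 to -0.06 for *Nmnat3*, 0.0086 to 0.07 for *Parp1* and 4.84e-04 to 0.10 for *Nnt*, and *Nampt* and *Nadsyn1* are given above.

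*Nnt* (NM_001308506, chromosome 13 from 119335527 to 119409257) encodes the mitochondrial transhydrogenase that passes hydride from NADH to NADP. C57BL/6J mice are known to carry a deletion within this gene, and the counts are sums over the transcript that do not show single exons. A further row of *Nnt* may be among the unnamed rows, so the row used may not be the highest. The level was 35.6, 35.7 and 37.5 CPM in control and 41.1, 36.1 and 36.7 CPM in AclyM-KO libraries. AclyM-KO replicate 1 was the highest and the others lay within the control range. The log2 fold change was 0.06 (SE 0.088, 95% interval -0.13 to 0.25, adjusted p = 0.698 by edgeR).

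*Nnmt* (chromosome 9 from 48538002 to 48607655), whose enzyme methylates nicotinamide for clearance, had 0 counts in all 6 libraries and was not tested. A count of 0 among 84584377 counts over the libraries allows up to 0.0355 CPM before TMM scaling, a limit for counting error only. Fibroblast markers summed to 0 to 0.224 CPM in control and 0 to 0.302 CPM in AclyM-KO libraries, with *Col3a1*, *Lum* and *Pdgfra* at 0.

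**Figure D2:**
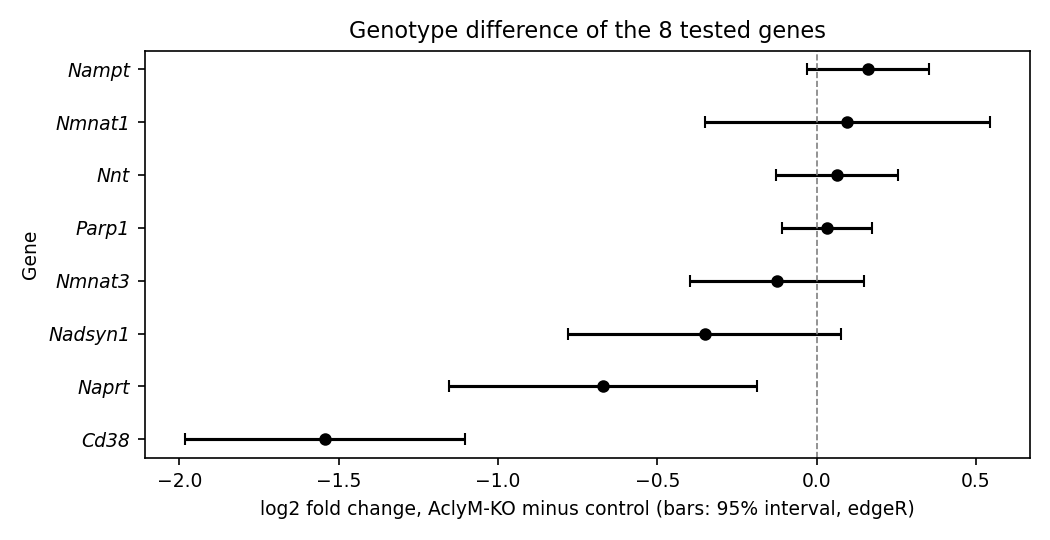
Log2 fold change (AclyM-KO minus control) of the 8 tested NAD metabolism genes, with bars for the unadjusted 95% interval from edgeR (3 libraries a group). The intervals of *Cd38* and *Naprt* lie below 0, and those of the other 6 genes include it.

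Levels were set beside each other per length, as RPKM, which divides each count by the library total and by the transcript length. In control libraries *Parp1* led with 38.7 ± 1.70 RPKM, followed by *Nampt* with 37.5 ± 0.674 RPKM and, at a lower level, *Nnt* with 10.3 ± 0.399 RPKM (SD, n = 3). *Nmnat3* was at 5.23 ± 0.503, *Cd38* at 3.29 ± 0.138, *Nmnat1* at 2.95 ± 0.326, *Naprt* at 2.20 ± 0.468 and *Nadsyn1* at 1.70 ± 0.216 RPKM (SD, n = 3). The ranges of *Parp1* and *Nampt*, of *Cd38* and *Nmnat1*, and of *Naprt* and *Nadsyn1* overlapped, so these neighbours did not differ beyond their spread. Every other pair of neighbours in this order had separate ranges. In AclyM-KO libraries *Cd38* had the lowest mean of the 8, 1.21 ± 0.334 RPKM, next to *Nadsyn1* with 1.38 ± 0.196 and *Naprt* with 1.43 ± 0.0849 RPKM (SD, n = 3). The ranges of these genes overlapped, at 0.865 to 1.53 for *Cd38*, 1.20 to 1.59 for *Nadsyn1* and 1.35 to 1.52 RPKM for *Naprt*, so they did not differ beyond their spread. *Parp1* (40.6 ± 1.02) and *Nampt* (43.0 ± 6.08) had exchanged places at the top within their spread.

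**Figure D3:**
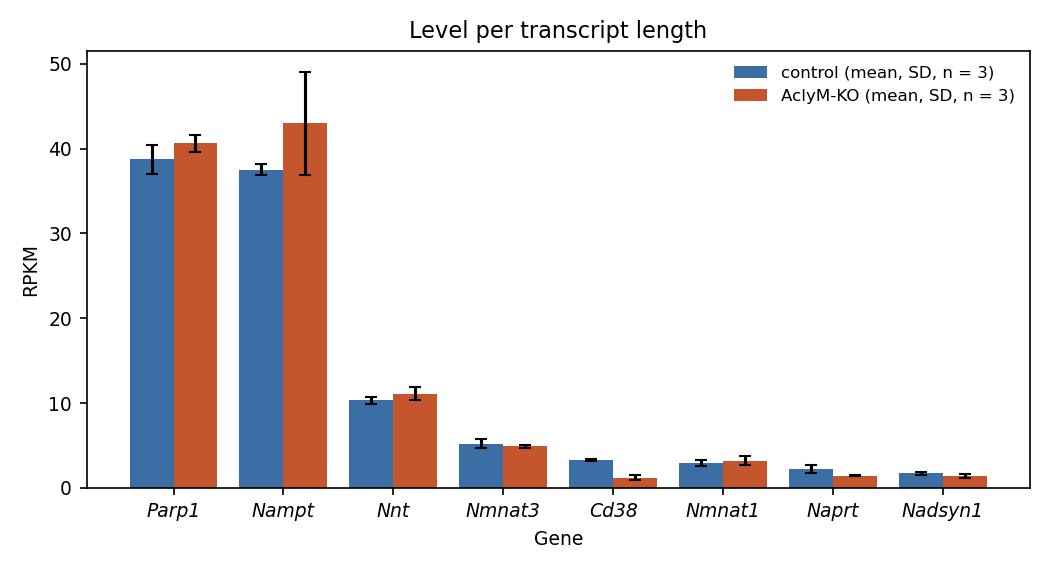
Mean RPKM of the 8 tested NAD metabolism genes in control (blue) and AclyM-KO (red) libraries, with bars for the SD (n = 3). *Parp1* and *Nampt* stand above the rest in both groups, and *Cd38* goes from 3.29 RPKM in control to 1.21 RPKM in AclyM-KO.

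The rest of the NAD pathway was covered by 10 lists with 71 genes, of which 50 were tested and 8 were at 0 in every library. Of the 50, 9 passed the threshold (18.0%, against 12.3% of all tested genes), 8 lower (against 5.65%) and 1 higher (against 6.70%) in AclyM-KO, and 41 did not. The median log2 fold change was -0.13, and 35 of 50 values were negative, against 49.97% of all tested genes. The count depended on single libraries. It was 0 without control replicate 1, 4 without control replicate 2, 3 without control replicate 3 and 5 without AclyM-KO replicate 3. Without control replicate 1, *Parp8* (adjusted p = 0.0504) and *Macrod1* (0.0551) just missed the threshold in edgeR, and both passed it in the other 15 alternatives. Of the 41 genes that did not pass, 13 changed sign with 1 library left out, among them *Kmo*, *Trpm2*, *Parp14*, *Sirt2*, *Enpp1* and *Naxe* of those named below, 18 more moved by over 1.5 times, and 10 stayed within that.

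*Bst1* (CD157), the other NAD-cleaving surface enzyme and a neighbour whose gene ends 25340 bases before *Cd38*, was at 8.28, 11.4 and 13.2 CPM in control and 6.18, 8.54 and 9.34 CPM in AclyM-KO libraries. The groups overlapped, and the log2 fold change was -0.44 (SE 0.194, adjusted p = 0.164 by edgeR) beside -1.54 for *Cd38*, a difference between the genes that was not tested. Its exons overlap *Fbxl5* on the opposite strand. *Sarm1*, the axonal NAD-cleaving enzyme, was too low to be tested. Of the channels that the CD38 products gate, none of 3 tested passed, with log2 fold changes of -0.26 for *Tpcn1*, -0.12 for *Tpcn2* and 0.04 for *Trpm2*, and the ryanodine receptor genes were too low to be tested. Without AclyM-KO replicate 2 the value of *Tpcn1* was -0.13. With 1 library left out *Tpcn2* ran from -0.17 to -0.04 and *Trpm2* from -0.04 to 0.16.

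Among the transport genes 2 of 3 tested fell (against 5.65% of all tested genes). The mitochondrial NAD carrier *Slc25a51* went from 142.3 ± 3.84 to 116.1 ± 9.65 CPM (log2 fold change -0.30, SE 0.075, adjusted p = 0.0251 by edgeR), and the nucleoside transporter *Slc29a1* from 79.5 ± 2.58 to 58.6 ± 10.1 CPM (-0.45, SE 0.111, adjusted p = 0.0217; SD, n = 3). In both, all AclyM-KO libraries were below control. Each missed the threshold without any 1 of the controls or without AclyM-KO replicate 3, with adjusted p from 0.0606 to 0.115 for *Slc25a51* and from 0.0539 to 0.0931 for *Slc29a1*. The other tested transport gene, *Slc29a2*, did not pass (log2 fold change -0.52, adjusted p = 0.369 by edgeR). Its value ran from -0.73 to -0.18 with 1 library left out. *Slc12a8*, *Slc5a8* and *Slc22a13* were at 0. None of the 3 tested de novo genes passed, at -0.12 for *Kmo*, -0.15 for *Afmid* and -1.32 for *Kynu* (adjusted p = 0.0943 by edgeR), the last with levels of 2.91 CPM or less. *Kynu* passed it without control replicate 2 (-1.70, adjusted p = 0.0413 by edgeR) and was at -0.84 without AclyM-KO replicate 2. The other 6 de novo genes were too low to be tested. None of 5 tested salvage and phosphorylation genes passed either, with log2 fold changes of -0.11 for *Nadk*, 0.23 for *Pnp*, -0.27 for *Nadk2* and -0.44 for *Nmrk1*, the nicotinamide riboside kinase (adjusted p = 0.0674 by edgeR). *Nmrk1* passed without AclyM-KO replicate 1 or 2 (edgeR adjusted p = 0.0417 and 0.0423) and with limma-voom (0.0202), and *Pnp* without AclyM-KO replicate 1 (0.0266).

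In the PARP family all 15 genes were tested, 1 rose (against 6.70% of all tested genes) and 3 fell (against 5.65%). *Parp3*, a DNA repair enzyme, rose from 31.1 ± 1.09 to 40.5 ± 0.243 CPM (log2 fold change 0.38, SE 0.082, adjusted p = 0.0118 by edgeR), and its exons overlap *Rrp9* on the opposite strand. *Parp8* fell from 30.7 ± 1.85 to 22.0 ± 0.641 CPM (-0.48, SE 0.093, adjusted p = 0.00689 by edgeR). *Parp4* (-0.26, adjusted p = 0.0392) and *Tnks* (-0.25, adjusted p = 0.0470) fell less and passed in only 9 and 7 of 16 alternatives. *Parp3* missed the threshold without control replicate 1 (adjusted p = 0.0731) or 3 (0.0682). *Parp4* missed it without any 1 of the controls or AclyM-KO replicates 1 or 3 (0.0760 to 0.170), and *Tnks* without any 1 of the controls or AclyM-KO replicate 3 (0.0831 to 0.188). The more abundant *Zc3hav1*, *Parp14*, *Tnks2* and *Parp12* had log2 fold changes of 0.14, 0.07, -0.15 and 0.21 and did not pass. Without AclyM-KO replicate 2 *Zc3hav1* was at 0.05 and *Parp12* at 0.12. *Parp14* ran from -0.09 to 0.15 with 1 library left out. *Tnks2* passed in 2 alternatives, without AclyM-KO replicate 2 (adjusted p = 0.0389 by edgeR) and with limma-voom (0.0320).

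Of 6 tested genes for ADP-ribose removal 1 fell (against 5.65%), *Macrod1*, a mitochondrial ADP-ribose hydrolase. It was at 11.4, 8.22 and 9.83 CPM in control and 6.36, 3.82 and 4.97 CPM in AclyM-KO libraries. The groups did not overlap, and the log2 fold change was -0.997 (SE 0.205, adjusted p = 0.00891 by edgeR). *Nudt9*, *Oard1*, *Parg* and *Adprhl2* had values of -0.26, -0.11, 0.25 and -0.18 and did not pass. *Parg* passed without AclyM-KO replicate 2 (edgeR adjusted p = 0.0152), with limma-voom (0.0198) and with total counts only (0.0465), and *Nudt9* without AclyM-KO replicate 3 (0.0302).

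All 7 sirtuin genes were tested and 1 fell (against 5.65%), *Sirt3*, the main mitochondrial deacetylase, from 10.6 ± 0.869 to 7.26 ± 1.39 CPM (log2 fold change -0.57, SE 0.163, adjusted p = 0.0414 by edgeR). It missed the threshold when any 1 of the controls or AclyM-KO replicates 2 or 3 was left out (adjusted p from 0.0641 to 0.161), and its exons overlap *Psmd13* and *Ric8a* on the opposite strand. *Sirt2*, *Sirt7*, *Sirt1* and *Sirt6* had values of -0.06, -0.19, 0.27 and -0.19. With 1 library left out these ran from -0.12 to 0.04, -0.28 to -0.08, 0.21 to 0.33 and -0.33 to -0.11. Of 2 tested genes for extracellular nucleotide breakdown 1 fell (against 5.65%), *Entpd1* (CD39), from 515.5 ± 17.2 to 392.1 ± 47.3 CPM (log2 fold change -0.40, SE 0.085, adjusted p = 0.0115 by edgeR), with adjusted p of 0.0672 and 0.0540 without control replicates 1 and 2. *Enpp1* was at -0.04. None of 5 tested genes of NAD(H) repair and breakdown passed, with *Naxe* at -0.02, *Naxd* at 0.10, *Nudt19* at 0.17 and *Nudt13* at -0.07.

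**Figure D4:**
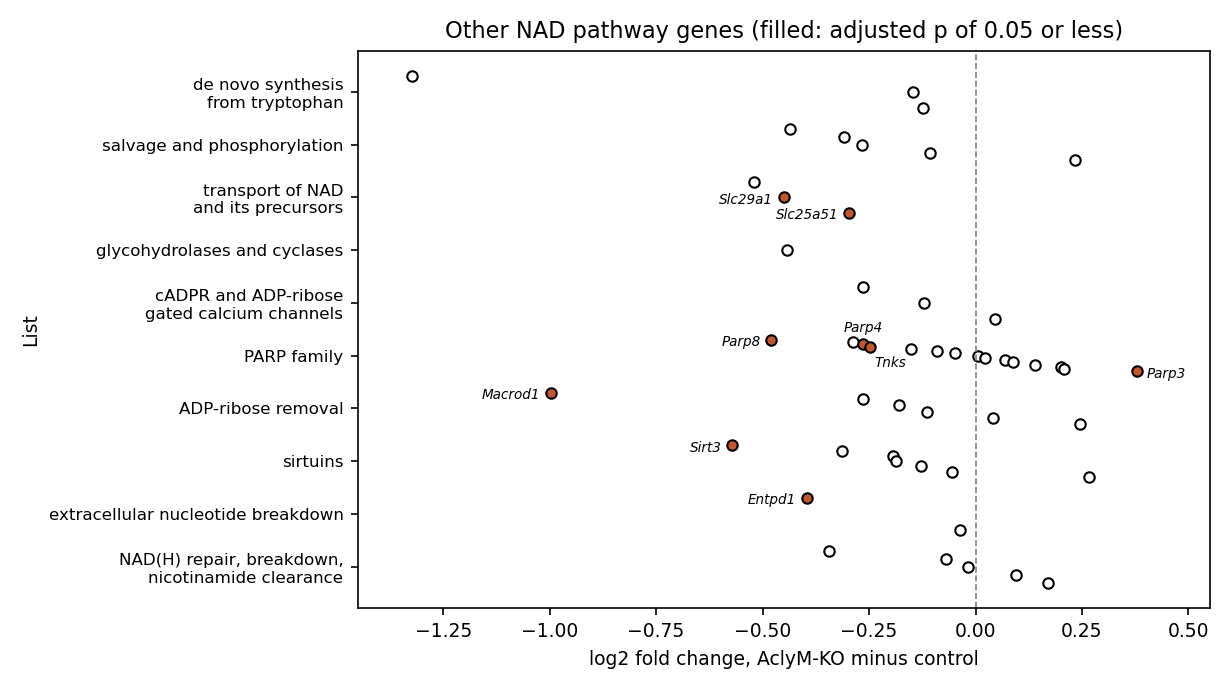
Log2 fold change (AclyM-KO minus control, x axis) of the 50 tested genes in the 10 NAD pathway lists (rows), filled and named where the adjusted p over all tested genes was 0.05 or less. The 8 filled points to the left of 0 run from -0.25 for *Tnks* to -0.997 for *Macrod1*, and *Parp3* at 0.38 is the 1 to the right.

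The tested genes whose log2 CPM followed *Cd38* most closely over the 6 libraries were *Zfp263* (r = 0.999), *Slc37a1* (0.998), *Tecpr2* (0.998), *Akap13* (0.998) and *Acp2* (0.996). All 5 were lower in AclyM-KO and lowest in AclyM-KO replicate 2, like *Cd38* itself. Among the NAD genes the closest were *Slc25a51* (r = 0.982), *Entpd1* (0.974) and *Slc29a1* (0.964). Each r is taken over the same 6 libraries, 3 of each genotype, so that any genes that differ by genotype or stand apart in 1 library can share it, and it carries no test.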

How the data were processed

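RNA of 3 control and 3 AclyM-KO libraries was sequenced by the authors, who prepared strand-specific mRNA libraries, aligned reads to mm10 with STAR (2.5.2b in the submitters' processing notes), filtered alignments with SAMtools and summed tags per RefSeq transcript with HOMER2 at default settings. They deposited raw counts, not normalized and not pooled, in a table whose 12 value columns included 6 that matched no sample here and were not used. The RefSeq release and strand setting are not given in the sources used here. Intervals and floors cover counting error or the spread between these libraries only.

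Of 35745 transcripts, 35440 took their symbol from RefSeq's table of genes, 188 took it from GENCODE M21 and 117 stayed unnamed. The row with the highest total stood for each gene, with totals of 11120034 to 25814853 per library. Groups were compared with edgeR 4.0.16 in R 4.3.3 (TMM, filterByExpr, quasi-likelihood test, genotype only, Benjamini-Hochberg adjustment over 11470 genes, threshold 0.05). The biological coefficient of variation was 8.9%. CPM used TMM-scaled totals over the tested genes, and RPKM used lengths of GENCODE M21 transcripts matched to RefSeq and the total over 1 row per gene without TMM factors, because the table had no length column where the plan had assumed one. The scripts were tested on simulated counts.

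The genes and lists were chosen with earlier results of these data known. Named are the 9 genes, *Acly*, every list gene past the threshold, at most 4 others per list by RPKM, and the 5 genes most like *Cd38* by Pearson's r. Promoter windows and exon overlaps came from RefSeq (GRCm38.p6) and GENCODE M21. Alternatives were DESeq2 1.42.0, RLE factors, total counts, no filter, at least 10 counts in every library, a replicate block and limma-voom (limma 3.58.1). The limma-voom fit gave each library a weight. Further alternatives were each library left out, summed transcripts, every transcript as a row, a threshold of 0.01 and a log2 fold change of 1 or more in size. Thinning AclyM-KO replicate 2 was added after seeing the data.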

Additional observations from a re-analysis of the deposited data

How the results depend on the processing

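In all 16 alternative fits the log2 fold changes of the 8 tested genes kept their sign and their side of the threshold, with *Cd38* between -1.76 and -1.28 when a library was left out. The 1416 genes called became 2187 with limma-voom, in which each library had a weight. They became 557 at an adjusted p of 0.01, 198 at a log2 fold change of 1 or more in size, and 598 to 2136 with a library left out. The 9 NAD pathway genes called became 2 at 0.01, 0 at a log2 fold change of 1 or more in size, and 0 to 12 with a library left out, where fewer samples were fitted. The 9 genes kept their sign throughout and missed the threshold in 1 (*Macrod1*, *Parp8*) to 9 (*Tnks*) of 16 alternatives; for *Tnks* these included DESeq2 (adjusted p = 0.0528). The median RPKM of the 8 genes in control was 4.26, and 2.45 with the total over all transcripts. The mean r of the 5 genes most like *Cd38* was 0.998, and the mean Spearman rho 0.92. Deviations of same-numbered libraries from their group means correlated at 0.09, 0.11 and -0.05. Each mean rests on 3 libraries, so these values cannot show whether replicate numbers pair the libraries. With the replicate block 1583 genes were called over all genes, 1 of the 8 and 9 in the NAD lists, where *Tnks* missed the threshold (adjusted p = 0.0623) and *Kynu* passed it (adjusted p = 0.0358). *Kynu* also passed with no filter on low counts (0.0406), as did *Tpcn1* (0.0433). The cause of these shifts was not tested. Low counts limit *Nmnat1*, *Naprt*, *Nadsyn1* and *Cd38*, which had 31 to 153 counts a library.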
